A study of Mus musculus with 2 samples.

Results

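The Mir30 family comprises 6 microRNA loci in the mouse, Mir30a, Mir30b, Mir30c-1, Mir30c-2, Mir30d and Mir30e, and all 6 were found by gene symbol among the 1973 microRNA genes of the deposited count tables. The family was examined in small RNA sequencing of whole limb from B6NCrl mouse embryos aged 14.5 days, when limb cartilage, muscle and skin are forming. There was 1 group of 2 libraries, biological replicates 1 and 2, which carried no allele or treatment in the labels, so the design held no contrast between conditions. The labels gave each library as 4 limbs of 1 pup, yet gave the sex as pooled, and both libraries carried the same donor label. How far the replicates are separate animals therefore rests on their replicate numbers and different collection days. The members were chosen by their shared family name, with their own-strand read counts in both libraries already known, and these levels are therefore given as a description, without a test.

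A microRNA is cut from a hairpin precursor whose 5′ and 3′ arms can each yield a mature strand of about the length sequenced here, and bases 2 to 8 of that strand, the seed, guide it to complementary sites in target mRNAs. The miR-30 microRNAs share a seed on their 5p arms and are widely expressed. In cultured mouse osteoblast precursors they are known to repress Runx2 and Smad1, which promote bone formation. The question for the 6 paralogous loci was how much each contributed to the reads of the family in the limb, and how closely the libraries agreed on this.

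The sequences were examined first, because they set which reads can be placed on a single locus. RefSeq sequences (GRCm38.p6) were matched for 4 of the 6 members, Mir30a, Mir30c-1, Mir30c-2 and Mir30e, while Mir30b and Mir30d are given by name only. The 5p arms are shown to compare the members, with the seed in capitals.
miR-30a-5p: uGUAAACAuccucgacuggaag
miR-30e-5p: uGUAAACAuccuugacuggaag
miR-30c-5p: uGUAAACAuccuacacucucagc
miR-384-5p: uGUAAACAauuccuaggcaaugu

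All 4 members with a sequence carried 1 seed on this arm. Of 1738 mature sequences in the RefSeq table, 5 from 5 genes carried it, and the only gene beyond those 4 members was Mir384, an X-linked locus outside the Mir30 names. The 5p arms of miR-30a and miR-30e have 22 bases and differ at 1 of them, written C13U from miR-30a to miR-30e with positions counted from the 5′ end. The 5p arm of miR-30c shares its first 12 bases with both. It is identical at Mir30c-1 and Mir30c-2, and the miR-384 arm shares the first 8 bases only.

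The 3p arms, shown with bases 2 to 8 in capitals, separate the loci further.
miR-30a-3p: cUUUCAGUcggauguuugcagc
miR-30e-3p: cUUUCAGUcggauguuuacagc
miR-30c-1-3p: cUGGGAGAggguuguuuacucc
miR-30c-2-3p: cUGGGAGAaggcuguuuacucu

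The 3p arms of miR-30a and miR-30e differ by G18A alone, so that these 2 loci differ by a single base on either arm. The 3p arms of miR-30c-1 and miR-30c-2 differ by G9A, U12C and C22U. Stretches of 18 bases were then looked up in all RefSeq hairpins. These did not include Mir30b or Mir30d, so stretches shared with those loci could not be found. Of the 5 such stretches in each arm of Mir30a and Mir30e, and in each 3p arm of Mir30c-1 and Mir30c-2, none lay in another gene's hairpin, whereas all 6 stretches of the miR-30c 5p arm lay in both Mir30c hairpins. A read of that arm has the same letters at both loci, and multiply aligned reads entered no gene's count.

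The hairpins of the 4 loci are shown with both mature arms in capitals.
Mir30e: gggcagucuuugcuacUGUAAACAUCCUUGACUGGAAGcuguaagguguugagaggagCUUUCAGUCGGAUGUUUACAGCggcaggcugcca
Mir30a: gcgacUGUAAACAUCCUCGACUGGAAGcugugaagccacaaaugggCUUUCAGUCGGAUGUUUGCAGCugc
Mir30c-1: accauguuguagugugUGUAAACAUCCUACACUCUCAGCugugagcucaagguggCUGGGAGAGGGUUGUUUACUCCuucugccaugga
Mir30c-2: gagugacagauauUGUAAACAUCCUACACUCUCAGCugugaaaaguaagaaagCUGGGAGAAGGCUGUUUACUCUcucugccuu

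Their lengths were 92, 71, 89 and 84 bases in this order. The predicted minimum free energy of folding (RNAfold) was -51.8 kcal/mol for Mir30e and -37.2 kcal/mol for Mir30a, against -34.3 kcal/mol for Mir30c-1 and -29.4 kcal/mol for Mir30c-2. Per base this was -0.56 and -0.52 kcal/mol for Mir30e and Mir30a and -0.39 and -0.35 kcal/mol for Mir30c-1 and Mir30c-2. These are predictions for the RefSeq hairpins, and none of them was measured in the limb.

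The loci lie in 3 pairs on 3 chromosomes (GENCODE M21, mm10/GRCm38), each pair on 1 strand, and are given with the gene identifiers of the count tables. Mir30e (ENSMUSG00000065409.1, chr4:120772606-120772697, minus strand) and Mir30c-1 (ENSMUSG00000065490.1, chr4:120769534-120769622, minus strand) lie 2983 bases apart in an intron of Nfyc, which encodes a subunit of the transcription factor NF-Y. Mir30a (ENSMUSG00000065405.2, chr1:23272269-23272339, plus strand) overlaps no other annotated gene. Its partner Mir30c-2 (ENSMUSG00000065567.1, chr1:23291701-23291784, plus strand), 19361 bases away, lies in an exon of the gene Gm27028. Mir30d (ENSMUSG00000065437.1, chr15:68341208-68341289, minus strand) overlaps exons of Gm20732 and Gm37296. Mir30b (ENSMUSG00000065476.2, chr15:68337415-68337510, minus strand), 3697 bases from Mir30d, overlaps an exon of Gm26621.

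The 2 libraries held 9001596 and 8387546 reads in replicates 1 and 2, of which 4608816 and 4144385 were counted on a gene's own strand, and levels are given in CPM, the count per 1000000 such reads. Multiply aligned reads made up 31.8% and 32.6% of the total. The tissue label was checked against marker microRNAs. All 6 limb patterning microRNAs, both of cartilage and all 7 of surface epithelium were detected with at least 10 counts in both libraries, together 66798 ± 1957, 61361 ± 2547 and 59168 ± 7406 CPM (SD, n = 2 each). None of 5 brain microRNAs in the tables was detected, and 4 of them (Mir124a-1, Mir124a-2, Mir124a-3 and Mir9-2) had no count.

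The family summed to 29630 and 30561 CPM in replicates 1 and 2, or 3.01% ± 0.0658 of all microRNA gene counts (SD, n = 2). Mir30e gave most of it. Mir30e was counted 97755 and 90781 times in replicates 1 and 2, that is 21210 and 21905 CPM, a mean of 21558 ± 491 CPM (SD, n = 2), and was 13th among all genes in each library. Its share of the family's singly aligned reads was 71.6% and 71.7%, so the libraries differed in this share by less than 1 percentage point.

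Mir30a and Mir30d followed, with Mir30a above Mir30d in both libraries. Mir30a was counted 21590 and 20349 times, that is 4685 and 4910 CPM (mean 4797 ± 159 CPM), and gave 15.9% ± 0.181 of the family. Mir30d was counted 16308 and 14780 times, that is 3538 and 3566 CPM (mean 3552 ± 19.7 CPM), and gave 11.8% ± 0.193. These 3 loci belonged to the 98 genes whose mean reached 1000 CPM, and the other three gave less than 1% of the family between them.

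Mir30b, the partner of Mir30d, was counted 597 and 448 times, that is 130 and 108 CPM (mean 119 ± 15.2 CPM). The Mir30c copies, which share their 5p arm, were lowest in singly aligned reads. Mir30c-1 was counted 242 and 227 times, that is 52.5 and 54.8 CPM (mean 53.6 ± 1.60 CPM). Mir30c-2 was counted 69 and 72 times, that is 15.0 and 17.4 CPM (mean 16.2 ± 1.70 CPM), 1417-fold below Mir30e in replicate 1 and 1261-fold in replicate 2.

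**Figure D1:**
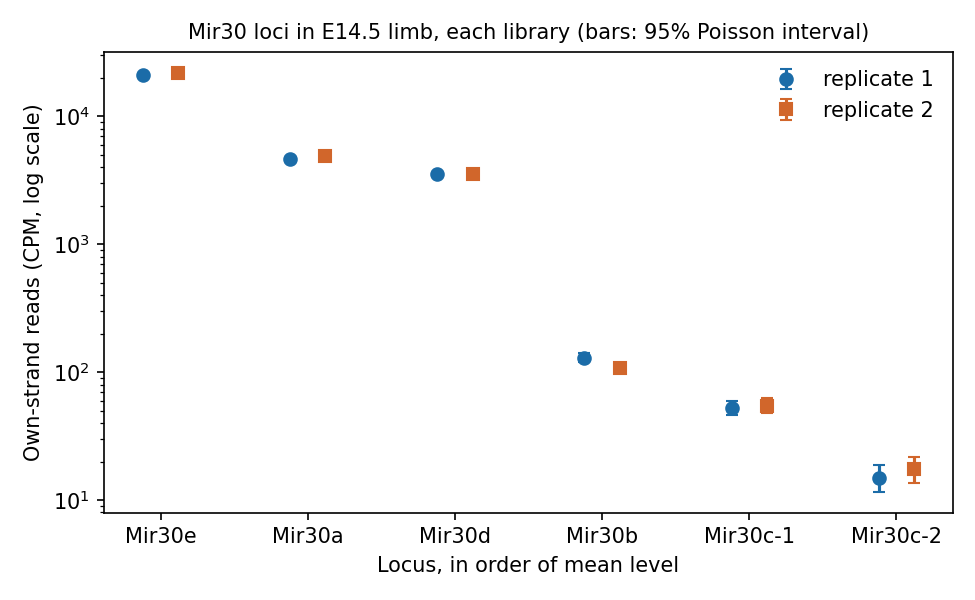
Own-strand reads of the 6 Mir30 loci in CPM on a log axis, in order of mean level, with a point for each library and its 95% Poisson interval, which covers counting error only. The levels run from 21558 CPM for Mir30e to 16.2 CPM for Mir30c-2, and on this scale the libraries lie close together at each locus.

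**Figure D2:**
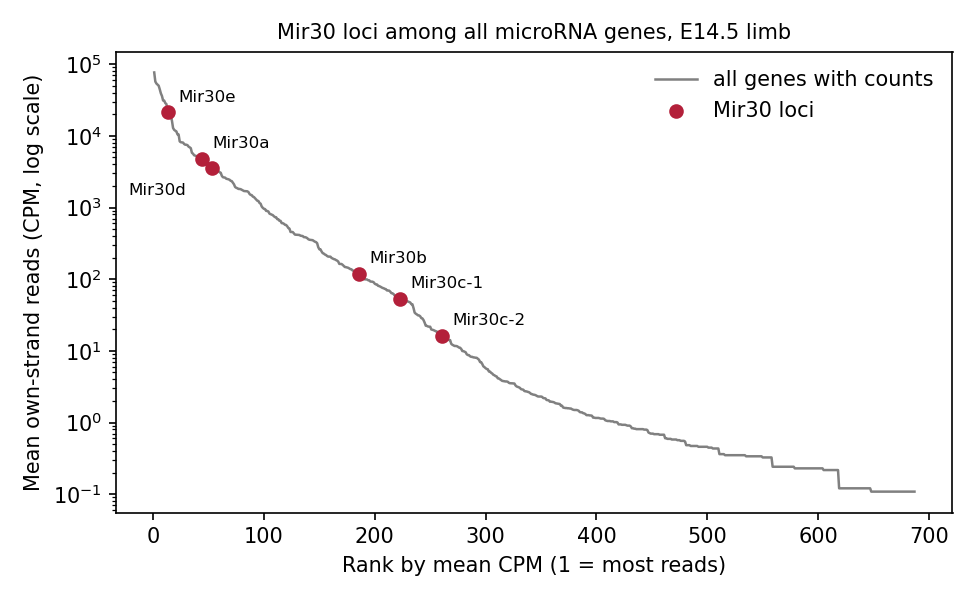
Mean CPM on a log axis against rank for all genes with a count (line) and the Mir30 loci (points). Mir30e stands at rank 13, Mir30a at 44 and Mir30d at 53, while Mir30b, Mir30c-1 and Mir30c-2 stand at 186, 223 and 261.

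The order Mir30e, Mir30a, Mir30d, Mir30b, Mir30c-1, Mir30c-2 was the same in both libraries. Each of the 5 gaps between neighbours in mean CPM exceeded the sum of the SDs of the neighbours. The narrowest in fold was Mir30a over Mir30d, with a ratio of counts of 1.32 in replicate 1 (95% exact binomial interval 1.30 to 1.35) and 1.38 in replicate 2 (1.35 to 1.41). Mir30e exceeded Mir30a 4.53-fold and 4.46-fold. The widest in fold was Mir30d over Mir30b, 27.3-fold (25.2 to 29.7) and 33.0-fold (30.0 to 36.3), and it lies inside a pair. Mir30b exceeded Mir30c-1 2.47-fold and 1.97-fold, and Mir30c-1 exceeded Mir30c-2 3.51-fold and 3.15-fold. With 2 libraries an exact permutation test cannot go below p = 0.5, so no p-value was given for the order. Counts were not divided by length, since a read spans a mature arm and not the precursor. Per kilobase of precursor the order was the same. How evenly different microRNAs yield reads was not measured, and the order therefore concerns singly aligned reads and not molecules.

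Loci of a pair may be cut from a shared primary transcript, and the pairs were compared next. In each pair the locus that comes first on the transcribed strand had more reads than the second. On chromosome 4 the count of Mir30e was 404 times that of Mir30c-1 in replicate 1 (356 to 460) and 400 times in replicate 2 (351 to 458). On chromosome 1 Mir30a was 313 times Mir30c-2 (247 to 402) and 283 times (224 to 361). On chromosome 15 the ratio of Mir30d to Mir30b was 30.2 ± 4.01 (SD, n = 2). The intervals of the libraries overlapped on chromosomes 4 and 1 and did not on chromosome 15. The second locus of 2 of the 3 pairs is a Mir30c copy, whose 5p arm has the same letters at the other copy. For Mir30b, the second locus on chromosome 15, no sequence was available to look for a shared arm. The part of shared arms in the ratios was not tested, because the counts do not record the arm of a read. Summed over its loci, the chromosome 4 pair gave 21611 ± 492 CPM, the chromosome 1 pair 4813 ± 161 CPM and the chromosome 15 pair 3671 ± 4.52 CPM (SD, n = 2 each), the same order as that of their first loci.

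**Figure D3:**
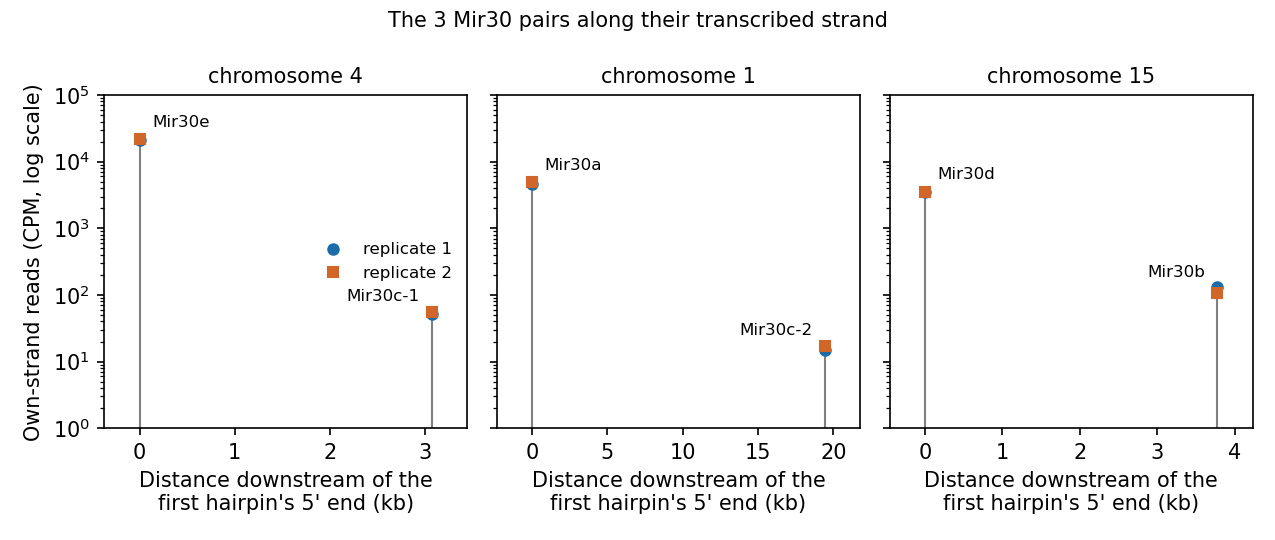
CPM on a log axis at the 3 Mir30 pairs against the distance in kilobases downstream of the 5′ end of the first hairpin on the strand, 1 panel a chromosome and 1 symbol a library. The first locus of each pair, Mir30e, Mir30a or Mir30d, lies above the second, Mir30c-1, Mir30c-2 or Mir30b.

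Other paralogous families were set beside Mir30 to show how their loci divide. Their members were sorted by whether any mature arm of the locus also lies in the hairpin of another gene in the RefSeq table. The Mir30 family summed to 30096 ± 658 CPM, 1.05 ± 0.00436 times the Mir26 family (28741 ± 509 CPM), above 1 in both libraries. It was 206 ± 0.697 times the Mir29 family (146 ± 3.69 CPM) and 0.364 ± 0.0101 times the 9 genes named Mirlet7 (82767 ± 483 CPM). These sums hold for singly aligned reads. In the Mir26 family, Mir26b, with no such arm, gave 99.8% and 99.7% of the sum in replicates 1 and 2. Mir26a-1 and Mir26a-2, which share an arm, were at 17.0 ± 0.501 and 59.2 ± 8.80 CPM, in the range of the Mir30c copies.

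In the Mir26, Mir29 and let-7 families, as in Mir30 among its 4 loci with a sequence, every locus with a shared arm lay below every locus without one in both libraries. The lowest let-7 locus without a shared arm was Mirlet7b at 3212 ± 131 CPM, and the highest with one was Mirlet7f-2 at 1288 ± 2.26 CPM. Over all 927 genes with a RefSeq sequence, 91 had a shared arm and 836 had none. Of the 91 with a shared arm, 46 (50.5%) were detected, with a median of 82.4 CPM among the detected. A mean of 1000 CPM was reached by 7 of them (7.69%) and 10000 CPM by none. Of the 836 without one, 260 (31.1%) were detected, with a median of 229 CPM among the detected. A mean of 1000 CPM was reached by 86 of these (10.3%) and 10000 CPM by 23, Mir30e among them. Genes with a shared arm were thus detected more often, and those detected had a lower median. Neither difference was tested.

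**Figure D4:**
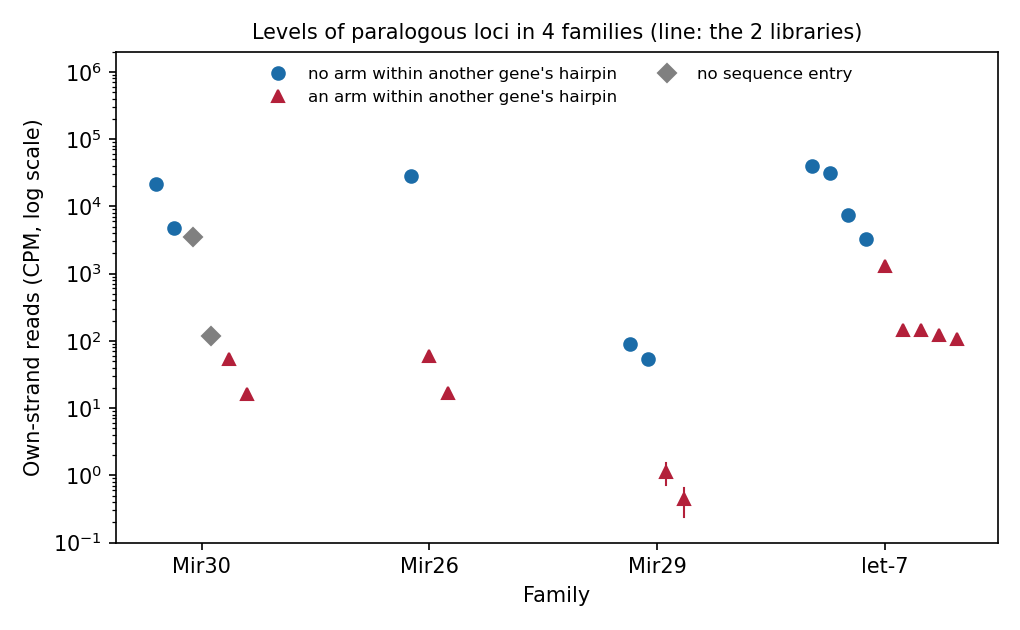
Mean CPM on a log axis of each locus of the Mir30, Mir26, Mir29 and let-7 families, with a line joining the 2 libraries where they are far enough apart to be seen. Loci with an arm that lies in another gene's hairpin (triangles) lie below the loci without one (circles) in each family, and Mir30d and Mir30b (diamonds) had no sequence entry.

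Neighbours of the family by seed or by position were also examined. Mir384, which shares the 5p seed, was counted 27 and 30 times, that is 5.86 and 7.24 CPM (mean 6.55 ± 0.976 CPM), below every Mir30 locus in both libraries. Mir30f is annotated on the strand opposite to Mir30e, and the 7 bases of the Mir30 seed start at base 1 of its mature sequence instead of base 2. It is not among the genes of the count tables, but opposite-strand reads at Mir30e would hold its reads with a single alignment. There were 0 in either library, which allows up to 3 counts, or 0.651 and 0.724 CPM in replicates 1 and 2. The 5 other Mir30 loci had no opposite-strand read either.

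The spread between the libraries was small for the abundant loci and for Mir30c-1, and larger for Mir30c-2 and Mir30b. The coefficient of variation of the CPM was 2.28% for Mir30e, 3.32% for Mir30a, 0.554% for Mir30d and 2.99% for Mir30c-1. It was 10.5% for Mir30c-2 and 12.8% for Mir30b. The median over 333 detected genes was 6.44%, and edgeR's common biological coefficient of variation was 8.80%. Detected genes were admitted from 10 counts in each library, where counting error is larger. Their median is therefore not matched to the depth of the abundant loci. Counting error alone would give about 0.326% for Mir30e, 0.691% for Mir30a and 0.803% for Mir30d. For the low loci it would give about 4.41% for Mir30b, 6.53% for Mir30c-1 and 11.9% for Mir30c-2. On the CPM scale Mir30e, Mir30a and Mir30b thus varied by more than their counting error, and Mir30d, Mir30c-1 and Mir30c-2 did not. For Mir30e and Mir30a this depended on the scaling. With TMM factors or DESeq2 size factors, given below, only the interval of Mir30b excluded equal levels in the libraries. In whole tissue, fewer cells of a type and less RNA per cell cannot be told apart.

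Replicate 2 was then set against replicate 1 for each locus. The log2 ratio was 0.05 for Mir30e (95% counting interval 0.03 to 0.06), 0.07 for Mir30a (0.04 to 0.10) and 0.01 for Mir30d (-0.02 to 0.04). Mir30b had 108 CPM in replicate 2 and 130 CPM in replicate 1, a log2 ratio of -0.26 (-0.44 to -0.08). The ratio was 0.06 for Mir30c-1 (-0.21 to 0.33) and 0.21 for Mir30c-2 (-0.28 to 0.71). None of the 6 loci was 1.5-fold apart, against 12.3% of all 407 genes whose counts summed to 10 or more. All 6 loci had over 100 counts in total, and among the 275 genes with at least that many only 3 (1.09%) were 1.5-fold apart, so the members did not stand out in this. For 3 of 6 loci, Mir30e, Mir30a and Mir30b, the interval excluded a ratio of 1. It did so for 39.8% of all 407 genes and for 156 (56.7%) of the 275 more deeply counted ones. The members thus did not stand out here either. The median log2 ratio was 0.05 over the members and 0.04 over all 407 genes.

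Scaled by TMM factors, only the interval of Mir30b excluded a ratio of 1 (log2 ratio -0.30), Mir30e stood at 0.01 and the sign of Mir30d turned to -0.03; DESeq2 size factors gave -0.30, 0.00 and -0.03. With 1 library on each side there was no replicate check, and the intervals compare these libraries only. Summed marker microRNAs of other cell types were lower in replicate 2 for some lists and higher for others. Skeletal muscle microRNAs, 4 of 8 of them detected, summed to 4788 CPM in replicate 2 and 6564 CPM in replicate 1 (log2 ratio -0.46). Erythroid microRNAs, 3 of 3 detected, summed to 417 CPM in replicate 2 and 547 CPM in replicate 1 (-0.39), and those of surface epithelium, 7 of 7 detected, to 53931 CPM in replicate 2 and 64405 CPM in replicate 1 (-0.26). In contrast, the liver microRNA Mir122 had 13.5 CPM in replicate 2 and 6.29 CPM in replicate 1 (1.10), and leukocyte microRNAs, 3 of 3 detected, summed to 655 CPM in replicate 2 and 598 CPM in replicate 1 (0.13). Cartilage had a log2 ratio of 0.08, limb patterning 0.06 and the endothelial Mir126a 0.02. None of these markers was at 0 in both libraries, and their part in the lower Mir30b of replicate 2 was not tested.

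**Figure D5:**
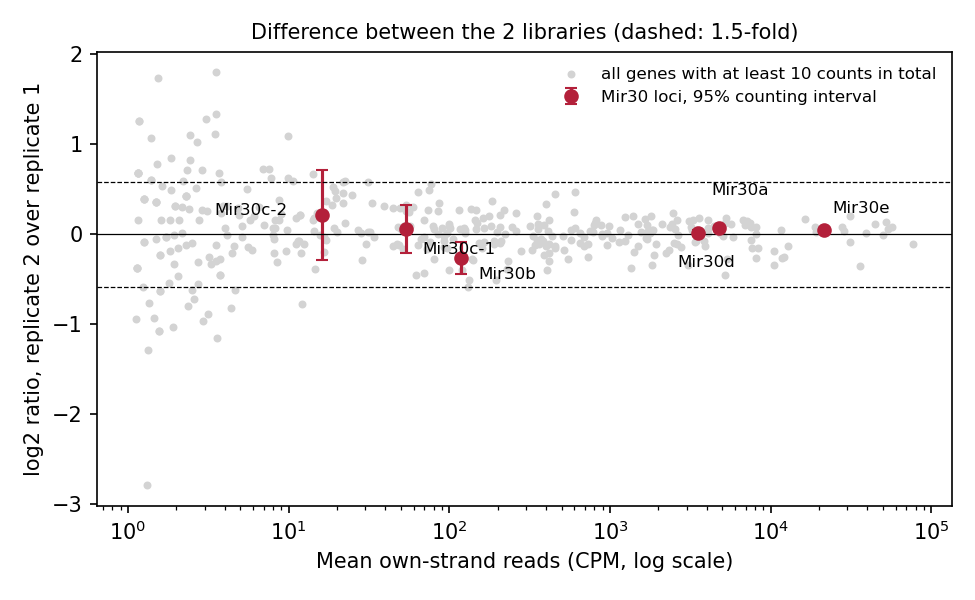
Log2 ratio of replicate 2 over replicate 1 against mean CPM on a log axis, for 407 genes (grey) and the Mir30 loci (red, with 95% counting intervals). All 6 loci lie between the dashed lines of 1.5-fold, Mir30b lowest at -0.26 and Mir30c-2 highest at 0.21.

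The genes nearest to each locus in level were named by the distance of log2(CPM + 1) over the 2 libraries, a likeness of level that carries no statement on function. Nearest to Mir30e was Mir23a at 20383 ± 522 CPM (distance 0.11), followed by the endothelial microRNA Mir126a at 19116 ± 215 CPM. Mir130b and Mir182 lay nearest to Mir30a, at 4753 ± 81.9 and 4804 ± 44.0 CPM, and Mir324 and Mir382 nearest to Mir30d. Nearest to Mir30b was Mir208b, a microRNA of a muscle myosin gene, at 121 ± 23.1 CPM (log2 ratio -0.39), followed by Mir222 (0.06). The distance is taken over the same 2 libraries, so a likeness in this ratio is partly built into the choice. Mir29c lay nearest to Mir30c-1, at 53.9 ± 1.62 CPM, followed by Mir181b-1. Mir218-1 and Mir19b-1 lay nearest to Mir30c-2.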

How the data were processed

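Per the deposited read-me texts, reads had been aligned to mm10 and counted on GENCODE M4. The aligner, counter and settings are not given in the sources used here. The authors deposited raw counts of reads per gene in 3 columns without header, taken from their values as either-strand, own-strand and opposite-strand counts, and 4 tally rows, which were kept out of totals. Own-strand counts were used and scaled to CPM. A read-me text per library held no measurements.

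Names and positions came from GENCODE M21 by gene identifier without version (1894 of 1973 genes matched), and sequences from RefSeq. Ratios between libraries carried a prior count of 0.5 and exact binomial intervals, and counts Poisson intervals, at 95%. Both treat reads as independent counts and cover counting error only. No molecular identifiers were recorded, so amplified copies of a molecule could not be told apart from separate molecules. edgeR 4.0.16 gave TMM factors and the common dispersion (intercept only, genes with at least 10 counts in total), and DESeq2 1.42.0 the size factors. edgeR's quasi-likelihood test was not run, since a comparison of single libraries has no residual degrees of freedom. Python 3.11.15, scipy 1.17.1 and RNAfold 2.7.2 were also used. The intervals were tried on simulated Poisson counts, which vary by counting error only. Their coverage of real variation between libraries was therefore not tested. The dispersion was tried on simulated counts with added variation between libraries.

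The members, lists, thresholds and alternatives were chosen with earlier results of these data known. Named genes were the members, genes sharing the 5p seed, the 2 genes nearest in level to each member, the comparison families and host genes, besides marker microRNAs of cell types. Single members of those families and Mir30f were named after their values or positions were seen.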

Additional observations from a re-analysis of the deposited data

How the results depend on the processing

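No paired analysis was possible because the design held 1 group. The order of the 6 loci was the same per kilobase of precursor and in each library alone. Another total scales all loci alike, and either-strand counts equalled own-strand counts at every member, so these could not change the order or the shares. The family sum, 30096 CPM, was 18340 CPM with reads of several alignments in the total, 56991 CPM without the 10 most abundant genes, 29150 CPM with either-strand counts and 28185 CPM per kilobase of precursor. The share of Mir30e in the counted reads of the family, 71.6%, was 67.5% per kilobase. On that length-scaled measure Mir30a stood at 5484, against 4797 CPM without it, and Mir30e at 19020, against 21558 CPM. These shifts follow from the length of each hairpin relative to those of the other genes. Each library alone gave family sums of 29630 and 30561 CPM, and ratios of 400 to 404 for Mir30e to Mir30c-1, 283 to 313 for Mir30a to Mir30c-2 and 27.3 to 33.0 for Mir30d to Mir30b. The number of genes at least 1.5-fold apart, 50 of 407, was 255 of 687 without a count filter and 3 of 275 with at least 100 counts in total, where fewer low genes were compared. The biological coefficient of variation stayed between 8.57% and 9.10%. Depth limits Mir30c-2 most, at 69 and 72 counts.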
